A study of Mus musculus with 10 samples.

Results

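The genes described here encode 9 receptor tyrosine kinases for the fibroblast, hepatocyte, epidermal and platelet-derived growth factors: Fgfr1, Fgfr2, Fgfr3, Fgfr4, Met, Egfr, Erbb3, Pdgfra and Pdgfrb. They were taken by name, with earlier results of these data known, and all 9 were found among the 23460 genes listed in the deposited tables. The cells were C2C12, a mouse myoblast line that grows in serum-rich medium and fuses into myotubes when the serum is lowered. Huwe1, a ubiquitin ligase, was depleted with short hairpin RNAs, and USP10, a deubiquitinase, was overexpressed, to ask how this pair of enzymes acts on muscle differentiation.

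RNA from 10 libraries was summarised in 4 tables of 2 columns each. At day 0, wildtype myoblasts (1 library) were set against Huwe1 knockdown myoblasts (2 libraries, one for each of a pair of hairpins). At day 6 in differentiation medium, wildtype cells (1 library) were set against cells with the same hairpins (2 libraries). At day 8, myotubes labelled as carrying non-targeting RNA (1 library; the table's header calls them wild type) were set against Huwe1 knockdown myotubes (2 libraries). By the sample labels these myotubes carried another pair of hairpins than the day 0 and day 6 cells, whereas the study's methods name only the pair of the myotubes for both. The virus was given to myotubes on day 4 of differentiation and followed by puromycin selection. By the methods, myoblasts were also depleted with lentivirus and selected with puromycin, while the day 0 and day 6 controls are labelled wildtype. The part of infection and selection in the ratios was not tested. In the fourth table, a stable line with USP10 cDNA under the EF1a promoter (1 library) was set against a day 6 control.

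Growth factor receptors of this class span the plasma membrane, pair up when a ligand binds and phosphorylate each other, which recruits adaptors and turns on the RAS to ERK cascade. In myoblasts, signals from fibroblast and hepatocyte growth factors favour division and hold back differentiation, and the cells leave the cell cycle when these signals fall. Erbb3 binds neuregulins and signals mainly through its partner Erbb2, since its own kinase activity is weak.

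Each value is an FPKM, a fragment number corrected for transcript length and sequencing depth, so levels may be compared between genes. Both knockdown libraries of a day were combined in 1 column, so there was 1 value per condition, no replicate error and no test. A gene was compared where at least 1 of its 2 values reached 1 FPKM, and was called lower or higher at a 2-fold difference. The log2 ratios are treated over control, with 0.01 FPKM added to each value. The tables were normalized separately, so ratios between columns of different tables only describe these columns.

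The USP10 table names its control as the same day 6 wild type file as the Huwe1 table, yet holds other values, and which library it came from was not settled. Among genes compared, 19.9% differed at least 2-fold between these 2 control columns, and 7 of the 9 receptors did. The robust SD of the log2 ratio between them was 0.63 over all genes, and it is the only spread between control columns that these data give. The control of the USP10 table was also the shallowest column whose depth could be estimated, at about 7790000 fragments against 18100000 to 29900000 in the others, and no depth could be estimated for the pooled knockdown columns. Receptor levels at day 6 are therefore given beside both controls, and counts with both, a choice made after seeing the data. The treated and control columns of different tables share no normalization.

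The targeted gene was lower in each knockdown column. Huwe1 stood at 38.3 FPKM in the day 0 control and 15.2 with the hairpins, at 35.1 and 21.9 at day 6, and at 55.4 and 33.0 in day 8 myotubes. Usp10 stood at 10.3 FPKM in its table's control and 38.3 with overexpression. It also stood at 35.4 in the day 6 Huwe1 knockdown, against 13.2 in the control of that table, and at 68.5 and 64.2 in the day 0 control and knockdown, so a level like that of the overexpressing line was also reached without the cDNA. Myog, which encodes the muscle regulator myogenin, stood at 0.164 FPKM in the day 0 control and at 619 and 305 in the day 6 controls, against 27.1 in the day 6 Huwe1 knockdown and 28.8 with USP10. In day 8 myotubes Myog was at 392 FPKM in control cells and 148 in depleted ones.

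Marker lists of other cell types were read alongside. The summed FPKM of 8 fibroblast and mesenchymal genes was 166 in the day 6 control of the Huwe1 table and 629 in that of the USP10 table, against 4922 in the Huwe1 knockdown and 4391 with USP10. Dcn, which encodes the matrix protein decorin, made up most of this sum, with 2987 FPKM in the knockdown and 3037 with USP10. The defining marker Thy1 was listed at 0 in both of these columns. The 5 endothelial genes summed to 0.106 and 0.781 FPKM in the day 6 controls, 7.92 in the Huwe1 knockdown and 7.31 with USP10, of which Cdh5 gave 6.83 and 6.81. It stood at 13.5 in the day 0 control, and Emcn was listed at 0 in all of these columns. The 5 adipocyte genes summed to 8.58 and 13.9 FPKM in the day 6 controls, 13.7 in the knockdown and 19.6 with USP10. Among them Fabp4 stood at 0.348 and 0.535 in the controls, 4.68 in the knockdown and 3.84 with USP10, while Adipoq was listed at 0 in all 8 columns. Macrophage genes summed to between 1.82 and 7.50 FPKM over the 8 columns. The part of any such cells in the receptor values was not tested, and in RNA from whole cultures fewer cells of a type and less RNA per cell cannot be told apart.

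The receptor with the widest relative range over the 8 columns was Fgfr4, and its promoter and that of Met, whose level moved the other way on differentiation, are shown so that elements known from muscle gene promoters can be read in them. Capitals mark the E-box CANNTG, the core bound by MyoD and myogenin, and CATTCC, the core bound by TEAD factors. CANNTG reads alike on both strands, CATTCC was searched on both, and no marked match overlaps another. The windows are those of RefSeq on GRCm38.p6, from 250 bases before to 50 after the transcript start, and such windows were matched for 6 of the 9 receptors. The Fgfr4 window is chr13:55152568-55152867 and the Met window chr6:17463707-17464006, both on the plus strand and written 5′ to 3′.
Fgfr4: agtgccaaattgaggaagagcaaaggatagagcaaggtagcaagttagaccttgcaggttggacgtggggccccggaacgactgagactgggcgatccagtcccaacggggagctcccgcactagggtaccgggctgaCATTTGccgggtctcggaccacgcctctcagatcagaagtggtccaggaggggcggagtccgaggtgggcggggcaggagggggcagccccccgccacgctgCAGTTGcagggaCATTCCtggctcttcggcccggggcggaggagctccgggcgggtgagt
Met: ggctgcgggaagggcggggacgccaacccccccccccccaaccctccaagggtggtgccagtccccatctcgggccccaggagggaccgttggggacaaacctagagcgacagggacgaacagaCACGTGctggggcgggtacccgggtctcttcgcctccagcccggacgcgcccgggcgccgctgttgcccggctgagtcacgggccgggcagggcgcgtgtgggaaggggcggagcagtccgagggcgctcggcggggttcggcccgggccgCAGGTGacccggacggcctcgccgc

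In the Fgfr4 window, CATTTG lay at -112 and CAGTTG at -10 from the transcript start, and CATTCC at +3. In the Met window, CACGTG lay at -126 and CAGGTG at +26, with no CATTCC on either strand. Of 32851 promoter windows in the same table, 72.3% held at least 1 CANNTG, 39.6% held 2 or more, 14.7% held CATTCC and 10.9% held both motifs. Of 2 Fgfr3 windows 1 held CAGCTG at -97 and the other no match, those of Pdgfra and Fgfr2 held 2 and 3 E-boxes, and that of Egfr held none. Of these 6 receptors, Fgfr4 was the only one with CATTCC. These are matches of letters in a fixed window, and binding was not measured here.

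**Figure D1:**
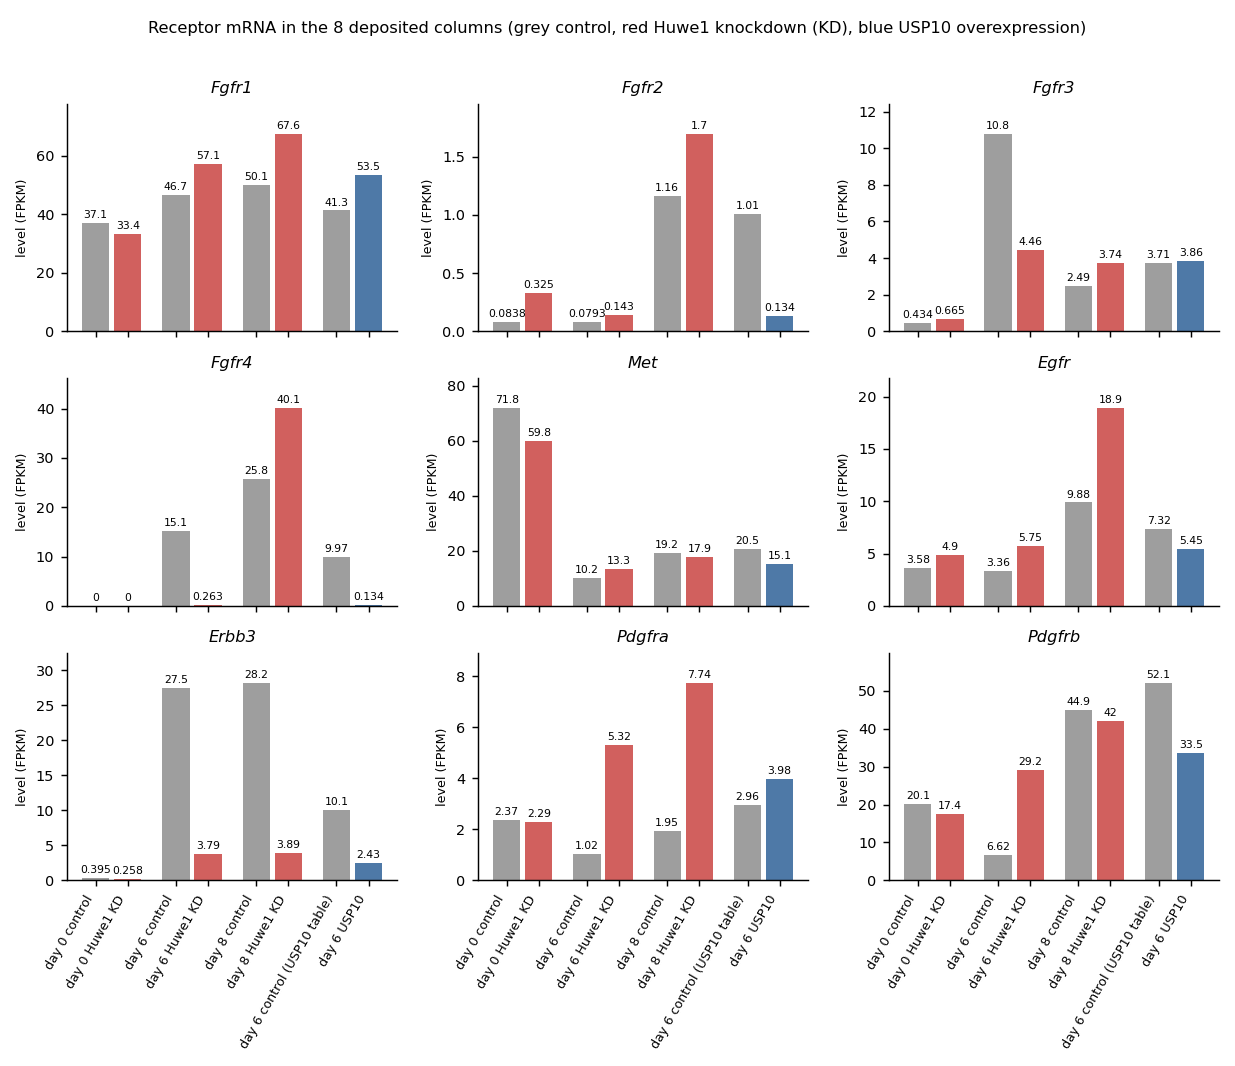
Levels of the 9 receptors (FPKM, linear axes from 0, a separate scale for each gene) in the 8 columns, with controls in grey, Huwe1 knockdown in red and USP10 overexpression in blue; each bar is 1 column with no replicate error. Fgfr4 stood at 0.263 FPKM in the day 6 knockdown and 0.134 with USP10, below 9.97 in the lower of the day 6 controls, while Erbb3 stood at 3.79 and 2.43 against 10.1.

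In dividing myoblasts, Met and Fgfr1 were the most abundant of the 9 receptor RNAs. Met, which encodes the hepatocyte growth factor receptor (mm10 chr6:17463957-17573980), stood at 71.8 FPKM in the day 0 control, second among 55 receptor tyrosine kinase genes after Axl at 155 FPKM. Fgfr1 (chr8:25518772-25575714), the main fibroblast growth factor receptor of these cells by RNA, stood at 37.1 FPKM, and Pdgfrb, one of a pair of receptors for platelet-derived growth factor, at 20.1. Egfr, the epidermal growth factor receptor, stood at 3.58 FPKM and Pdgfra, the other platelet-derived growth factor receptor, at 2.37. Fgfr3, Erbb3 and Fgfr2 lay below 1 FPKM, at 0.434, 0.395 and 0.0838, and Fgfr4 was listed at 0 in both day 0 columns. At the estimated depth of the day 0 control a single Fgfr4 fragment would have been worth about 0.0138 FPKM.

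Knockdown of Huwe1 in these myoblasts left the receptor levels close to the control. Of 5 receptors that reached 1 FPKM, none was 2-fold lower and none 2-fold higher, where 1.69% of all 10874 genes compared were lower and 1.90% were higher. Met stood at 71.8 FPKM in control and 59.8 in depleted cells (log2 ratio -0.26). Fgfr1 stood at 37.1 and 33.4 (-0.15), and Pdgfrb at 20.1 and 17.4 (-0.21). Egfr had the largest of the 5 ratios, from 3.58 to 4.90 FPKM (0.45). This is below the 0.63 spread over all genes between the day 6 controls, between which Egfr itself differed by 1.12. Among the ligands, Fgf7, Fgf2 and Ereg were more than 2-fold higher in the knockdown. Fgf7, a fibroblast growth factor that binds a splice form of Fgfr2, stood at 5.37 and 17.7 FPKM. Ereg, which encodes the Egfr ligand epiregulin, stood at 7.44 and 22.0.

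On differentiation of the control cells the order of the receptors by level changed. Erbb3, Fgfr4 and Fgfr3 were higher in both day 6 controls and in day 8 myotubes than at day 0, and Met was lower in all 3. Erbb3 (chr10:128569368-128589501) stood at 0.395 FPKM at day 0, 27.5 and 10.1 in the day 6 controls, and 28.2 in day 8 control myotubes. Fgfr4 (chr13:55152818-55168759), listed at 0 at day 0, stood at 15.1, 9.97 and 25.8 FPKM in the same order, and Fgfr3 (chr5:33721724-33737068) at 10.8, 3.71 and 2.49 FPKM after 0.434 at day 0. Every differentiated control column lay above day 0 for these 3 genes, although the 2 day 6 controls differed from each other by -1.44 on the log2 scale for Erbb3 and -1.54 for Fgfr3.

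Met moved the other way, from 71.8 FPKM at day 0 to 10.2 and 20.5 in the day 6 controls and 19.2 in day 8 myotubes. Its log2 ratio to day 0 was -2.81 or -1.81 at day 6, by the control used, and -1.90 at day 8. Fgfr1 held between 37.1 and 50.1 FPKM over the 4 control columns, so the composition of the fibroblast growth factor receptors changed around it. Fgfr1 made up 98.6% of the summed FPKM of Fgfr1 to Fgfr4 at day 0, against 64.2% and 73.8% in the day 6 controls and 63.0% in day 8 myotubes. The share of Fgfr4 was 0% at day 0, then 20.8% and 17.8% at day 6 and 32.4% at day 8.

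The platelet-derived and epidermal growth factor receptors had no direction that both day 6 controls shared. Pdgfrb stood at 20.1 FPKM at day 0, at 6.62 in the day 6 control of the Huwe1 table, 52.1 in that of the USP10 table, and 44.9 in day 8 myotubes. Its log2 ratio to day 0 was thus -1.60 with the first day 6 control and 1.37 with the second. Pdgfra (chr5:75152291-75198204) stood at 2.37 FPKM at day 0, 1.02 and 2.96 at day 6 and 1.95 at day 8, with ratios of -1.21 and 0.32 at day 6. Egfr (chr11:16752203-16913907) stood at 3.58 FPKM at day 0, 3.36 and 7.32 at day 6 and 9.88 at day 8. Fgfr2 (chr7:130162451-130266808) was the least abundant receptor in most columns, with at most 1.16 FPKM in a control.

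In counts, 3 of the 8 receptors compared were lower in the day 6 control of the Huwe1 table than at day 0 (Met, Pdgfra and Pdgfrb) and 3 were higher (Fgfr3, Fgfr4 and Erbb3), where 23.2% and 21.5% of all genes were. With the day 6 control of the USP10 table the counts were 1 and 6 of 9, where 20.9% and 19.2% were. At day 8, Met alone of the 9 was lower and 6 were higher, where 15.7% and 20.0% of all genes were. The 8 housekeeping genes summed to 6317 FPKM at day 0, 2146 and 2434 in the day 6 controls and 3814 at day 8. These columns come from tables normalized separately, and the part of that in the ratios was not tested.

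In cells with Huwe1 depleted before differentiation, Fgfr4 and Erbb3 stood below both day 6 controls, Fgfr4 by far the more. Fgfr4 was at 0.263 FPKM in the knockdown, against 15.1 in the control of the same table and 9.97 in the other control, and it had been listed at 0 in the day 0 knockdown. Its log2 ratio was -5.79 with the first control and -5.19 with the second. Erbb3 was at 3.79 FPKM against 27.5 and 10.1, with ratios of -2.86 and -1.41. The controls differed from each other by -0.60 for Fgfr4, less than either ratio, and by -1.44 for Erbb3, slightly more than the second one.

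Fgfr3, Pdgfra and Pdgfrb passed 2-fold against the control of their own table but not against the other. Fgfr3 was at 4.46 FPKM in the knockdown, between controls of 10.8 and 3.71, with log2 ratios of -1.27 and 0.27. Pdgfrb was at 29.2 FPKM, between controls of 6.62 and 52.1, with ratios of 2.14 and -0.83. Pdgfra was at 5.32 FPKM, above controls of 1.02 and 2.96, with ratios of 2.38 and 0.85. The fibroblast and mesenchymal markers, mostly Dcn, were also higher in the knockdown (summed 4922 FPKM) than in both controls (166 and 629). In the day 0 control of these myoblasts they summed to 1001 FPKM, above both day 6 controls. A link of these markers to Pdgfra was not tested.

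Met, Egfr and Fgfr1 stayed within 2-fold of both controls. Met was at 13.3 FPKM in the day 6 knockdown, between controls of 10.2 and 20.5, and against 59.8 in the day 0 knockdown. Its lower level after differentiation was thus seen in knockdown cells as well (log2 ratio -2.17), although Fgfr4 stayed near 0 there. Egfr was at 5.75 FPKM between controls of 3.36 and 7.32, and Fgfr1 was at 57.1 above controls of 46.7 and 41.3. Fgfr1 made up 92.1% of the summed FPKM of Fgfr1 to Fgfr4 in this knockdown, and Fgfr4 made up 0.425%.

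In counts, 3 of 8 receptors were lower in the day 6 knockdown than in the control of its table (Fgfr3, Fgfr4 and Erbb3), where 13.4% of all 11695 genes were, and 2 were higher (Pdgfra and Pdgfrb), where 17.6% were. With the other control, 3 of 9 were lower (Fgfr2, Fgfr4 and Erbb3) and 0 were higher, where 9.92% and 13.0% of all genes were. From day 0 to day 6 within knockdown cells, Met was the only one of 7 receptors to be lower, where 16.9% of all genes were, and 3 were higher (Fgfr3, Erbb3 and Pdgfra), where 19.1% were.

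**Figure D2:**
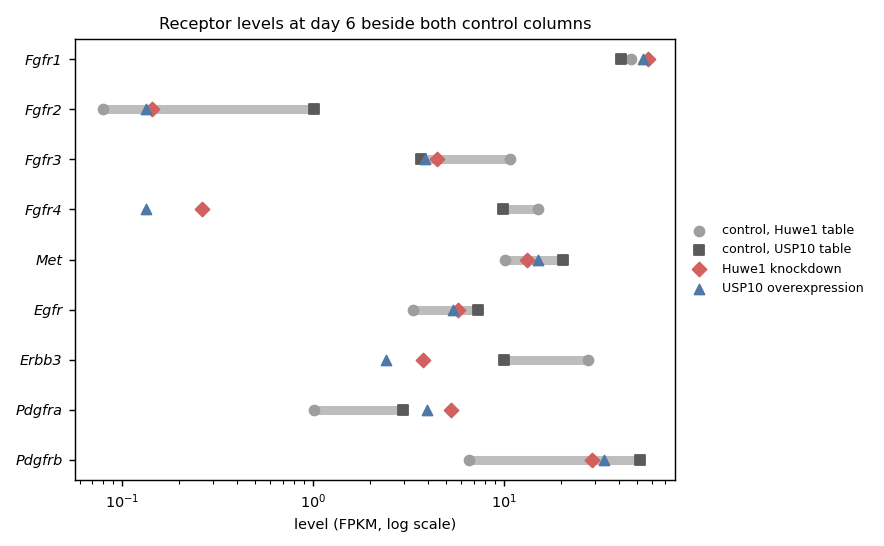
Levels of the 9 receptors at day 6 (FPKM, log scale) in the 2 control columns, joined by a grey bar, in the Huwe1 knockdown and with USP10 overexpression; each point is 1 column. Fgfr4 and Erbb3 lie left of both controls in both treated cultures and Pdgfra and Fgfr1 right of both, while the other 5 lie between the controls.

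USP10 overexpression gave low Fgfr4 and Erbb3 as well. Fgfr4 was at 0.134 FPKM, or roughly 12.3 fragments, against 9.97 in the control of its table and 15.1 in the other day 6 control, with log2 ratios of -6.11 and -6.72. Erbb3 was at 2.43 FPKM against 10.1 and 27.5, with ratios of -2.05 and -3.49. Both genes were therefore below both controls in both treated cultures. Fgfr2 was also lower than its table's control, at 0.134 against 1.01 FPKM (-2.82), but only about 16.0 and 33.8 fragments lie behind these values and the other day 6 control stood at 0.0793 FPKM.

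The other receptors with USP10 lay within 2-fold of the control of their table. Fgfr1 was at 53.5 FPKM against 41.3 (log2 ratio 0.37), Met at 15.1 against 20.5 (-0.44) and Egfr at 5.45 against 7.32 (-0.42). Fgfr3 was at 3.86 FPKM against 3.71 (0.06), Pdgfra at 3.98 against 2.96 (0.43) and Pdgfrb at 33.5 against 52.1 (-0.64). Against the day 6 control of the Huwe1 table, Fgfr3 had a ratio of -1.48, Pdgfra 1.96 and Pdgfrb 2.34, so the 2-fold calls of these 3 depended on the control here too. Met, Egfr and Fgfr1 had ratios of 0.56, 0.70 and 0.19 against that control, with Met and Egfr on the other side of 0. In counts, 3 of 9 receptors were lower (Fgfr2, Fgfr4 and Erbb3), where 10.0% of all 11482 genes were, and 0 were higher, where 9.70% were. Against the day 6 control of the Huwe1 table, 3 were lower (Fgfr3, Fgfr4 and Erbb3) and 2 were higher (Pdgfra and Pdgfrb), where 15.5% and 17.5% of all genes were.

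In myotubes depleted of Huwe1 after differentiation had begun, Erbb3 was again low but Fgfr4 was not. Erbb3 stood at 28.2 FPKM in day 8 control myotubes and at 3.89 in depleted ones (log2 ratio -2.86). Fgfr4 stood at 25.8 and 40.1 FPKM (0.63), the highest Fgfr4 level of the 8 columns. Pdgfra was the only receptor to pass 2-fold upward, at 1.95 and 7.74 FPKM (1.98), with Egfr just under that limit at 9.88 and 18.9 FPKM (0.93).

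The remaining receptors differed little in these myotubes. Fgfr1 stood at 50.1 FPKM in control and 67.6 in depleted myotubes (0.43), where it was the most abundant of the 55 receptor tyrosine kinase RNAs. Pdgfrb stood at 44.9 and 42.0 FPKM (-0.10) and Met at 19.2 and 17.9 (-0.10). Fgfr3 stood at 2.49 and 3.74 FPKM (0.59) and Fgfr2 at 1.16 and 1.70 (0.55). In counts, 1 of 9 receptors was lower, where 10.0% of all 11755 genes were, and 1 was higher, where 7.89% were. The fibroblast and mesenchymal markers summed to 749 FPKM in control and 1014 in depleted myotubes, while their median was 10.5 and 7.10. Most of the higher sum came from Col3a1, at 411 and 710.2 FPKM, and Dcn stood at 4.19 and 8.75. Col1a1 (69.1 and 65.4), Col1a2 (243 and 220.0), Ly6a (13.9 and 4.28) and Cd34 (7.22 and 5.45) were lower in depleted myotubes.

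Pax7, a regulator of muscle stem cells, stood at 0 FPKM in the day 0 control, 7.54 and 8.27 in the day 6 controls, 0.0438 in the day 6 knockdown, 0.0808 with USP10, and 24.7 and 36.7 in the day 8 control and knockdown. Its high and low columns were those of Fgfr4. Myh3, an embryonic myosin heavy chain, was instead low in the day 8 knockdown as Erbb3 was, at 1218 FPKM in control myotubes and 45.4 in depleted ones. These 2 genes were chosen from the marker lists after their values were seen.

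**Figure D3:**
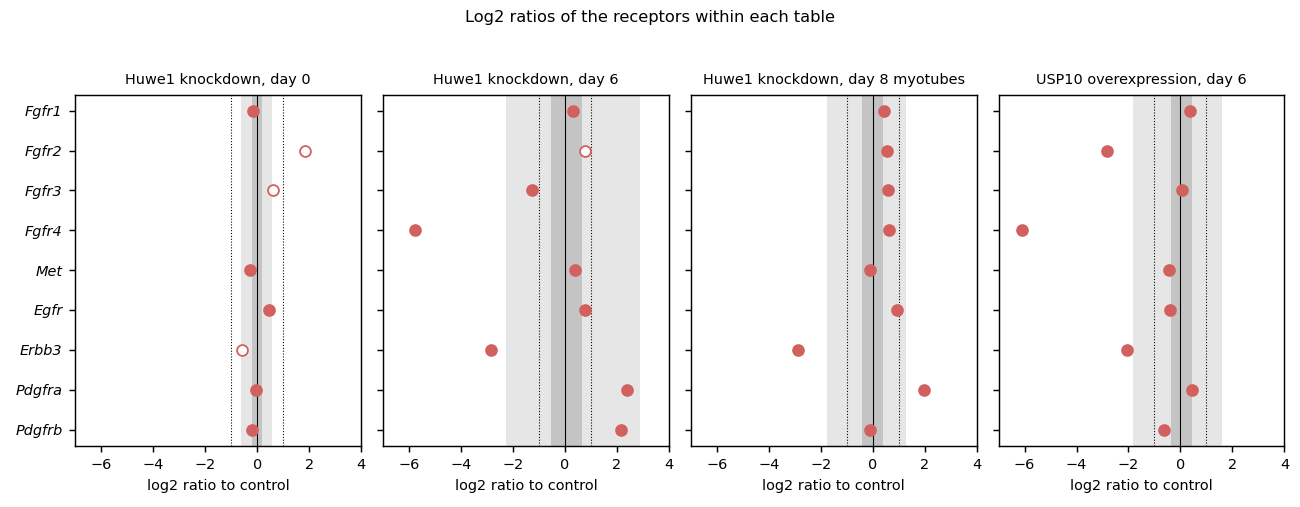
Log2 ratio of treated to control for the 9 receptors in the 4 tables; light grey spans the 5th to 95th percentile and dark grey the middle 50% of all genes compared, dotted lines mark 2-fold, and open circles are genes below 1 FPKM in both columns. Erbb3 lies at -2.86 at day 6 and at day 8, Fgfr4 at -5.79 at day 6 but 0.63 at day 8, and Fgfr4 is not drawn at day 0, where it was listed at 0.

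Genes whose levels over the 8 columns were most like each receptor were ranked by Pearson's r of log2 values among about 10235 genes reaching 5 FPKM. For Fgfr4 they were Prox1, Lrrn1 and Igdcc4 (r 0.996, 0.996 and 0.994). For Erbb3 they were Ldb3, Myl6b and Fsd2 (0.993, 0.993 and 0.992), and Ldb3 and Myl6b encode proteins of the contractile apparatus. For Fgfr3 they were Cry2, Ube2b and 3110062M04Rik (0.990, 0.982 and 0.979), and for Met they were Slc20a1, Tpgs2 and H2afy (0.985, 0.984 and 0.984). For Fgfr1 the first gene was Cdc42bpg (0.986), for Egfr Scmh1 (0.983), for Pdgfra Vsig10 (0.994), for Pdgfrb Olfml3 (0.977) and for Fgfr2 Gm5424 (0.963). Among the receptors themselves, Fgfr3 and Met had r of -0.98, Fgfr4 and Erbb3 0.89, and Fgfr2 and Egfr 0.89. The points share 4 tables and their normalization. With 1 FPKM added in place of 0.01, 3 of 3 leading genes were shared for Fgfr1, Egfr and Pdgfra, 2 for Fgfr3 and Fgfr4, 1 for Fgfr2, Met and Pdgfrb, and 0 for Erbb3.

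Among ligands of the fibroblast growth factor receptors, Fgf21, a circulating factor that muscle cells make under stress, had the highest level in the differentiated controls. It stood at 0.281 FPKM at day 0, at 438 and 298 in the day 6 controls and at 135 in day 8 control myotubes. It was lower in all 3 treated cultures, at 7.58 FPKM in the day 6 knockdown (log2 ratio -5.85), 5.04 with USP10 (-5.88) and 8.06 in the day 8 knockdown (-4.06). Fgf7 lay above both day 6 controls (2.28 and 5.59 FPKM) in the day 6 knockdown, at 9.75, and with USP10, at 21.5, and above Fgf21 in both treated cultures. The list held 22 Fgf genes, among them Fgf11 to Fgf14, whose proteins stay inside the cell and are not ligands of these receptors, and the counts here leave those out, a choice made after seeing the data. In the day 6 knockdown 1 of 5 ligand genes was lower and 3 were higher, where 13.4% and 17.6% of all genes were, and with the other control 1 was lower and 0 were higher, where 9.92% and 13.0% were. With USP10, 2 of 5 were lower and 2 higher, where 10.0% and 9.70% of all genes were, and with the other control 1 of 4 was lower and 2 were higher, where 15.5% and 17.5% were. At day 8, 2 of 3 were lower and 0 higher, where 10.0% and 7.89% were.

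Among co-receptors and carriers, Fgfrl1, a receptor-like protein without a kinase domain, was higher in the differentiated controls than at day 0. It stood at 13.1 FPKM at day 0, 117 and 35.6 in the day 6 controls and 69.7 in day 8 control myotubes, against 34.0 in the day 6 knockdown, 22.0 with USP10 and 18.0 in the day 8 knockdown. Its log2 ratio was -1.78 in the day 6 knockdown, -0.69 with USP10 and -1.95 at day 8, and the day 6 knockdown was close to the other day 6 control. Of 10 genes of this list compared in the day 6 Huwe1 table, 1 was lower and 6 were higher, where 13.4% and 17.6% of all genes were, with a list median of 1.38 against -0.01 over all genes. With the other control 3 of 12 were lower and 2 higher, where 9.92% and 13.0% of all genes were, and the list median was -0.06.

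The ligand of Met, Hgf, and some of the proteases that can activate it were higher in the day 6 knockdown than in both controls. These were the 3 genes of their list of 10 that reached 1 FPKM. Hgf stood at 9.11 FPKM against 3.78 and 8.98, so it differed little from the second. Plau, the urokinase gene, stood at 66.6 FPKM against 4.44 and 16.7, and Plat, the tissue plasminogen activator gene, at 41.7 against 4.31 and 11.8. In dividing control cells Plau had stood at 111 FPKM.

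All 4 of the Egfr and Erbb3 ligand genes compared were at least 2-fold lower in the day 6 control of the Huwe1 table than at day 0, where 23.2% of all genes were. With the other day 6 control 3 of 4 were lower, where 20.9% of all genes were, and at day 8 2 of 4, where 15.7% were. Areg, which encodes the Egfr ligand amphiregulin, stood at 21.4 FPKM at day 0 and 0.734 and 2.11 in the day 6 controls, and Hbegf, which encodes another, at 19.4, 3.14 and 7.75. Nrg1, which encodes the Erbb3 ligand neuregulin, stood at 4.91 FPKM at day 0, 0.417 and 5.85 in the day 6 controls and 4.75 in the day 6 knockdown. Erbb2, the partner of Erbb3, stood at 6.65 FPKM at day 0, 17.7 and 10.2 in the day 6 controls, 7.96 in the day 6 knockdown and 6.61 with USP10. It thus lay on the same side of both controls as Erbb3, over a narrower range. At day 8 it stood at 15.9 and 12.9 FPKM. Errfi1, which encodes an inhibitor of Egfr, stood at 155 FPKM at day 0 and between 9.46 and 27.5 in all later columns.

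Among the ligands of the platelet-derived growth factor receptors, Pdgfc lay above both day 6 controls (4.32 and 22.8 FPKM) in the day 6 knockdown, at 42.8, and with USP10, at 47.2. At day 8, Pdgfb and Pdgfd were lower in the knockdown, at 3.76 and 0.906 FPKM and at 3.28 and 0.333 FPKM, while Pdgfc stood at 44.5 and 47.8. Pdgfrb made up between 84.4% and 95.8% of the summed FPKM of both receptors in all 8 columns.

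Downstream of the receptors, few adaptors and few genes of the RAS to ERK cascade passed 2-fold in the treated cultures. In the day 6 knockdown, 0 of 14 adaptor and effector genes were lower and 1 (Frs2) was higher, and of 14 cascade genes 1 (Ksr1) was lower. With the other control 0 of 15 and 0 of 14 genes of these lists passed in either direction. At day 8 no gene of either list passed 2-fold, and with USP10 Rasa1 alone did, downward, though 2 cascade genes were lower and 2 higher against the other control. On differentiation, from day 0 to the day 6 control of the Huwe1 table, 2 of 14 adaptor and effector genes were lower and 5 higher, 2 of 14 cascade genes were lower and 2 higher, and 8 of 14 feedback and target genes of ERK were lower and 2 higher. With the other day 6 control the counts were 2 and 5 of 15, 2 and 0 of 14, and 8 and 2 of 15, where 20.9% and 19.2% of all genes were lower and higher. Dusp4, which encodes a phosphatase of ERK, stood at 31.5 FPKM at day 0 and at 3.19 and 4.52 in the day 6 controls, and Phlda1, a gene induced by growth factors, at 132, 12.1 and 10.9. Dusp4 was at 10.5 FPKM in the day 6 knockdown and 19.0 with USP10, and Phlda1 at 23.0 and 33.7, so both genes lay above both controls in both treated cultures. Of 14 genes of the ERK feedback and target list, 2 were lower and 6 higher in the day 6 knockdown, where 13.4% and 17.6% of all genes were. The counts were the same with the other control, where 9.92% and 13.0% of all genes were lower and higher. Of 13 with USP10, 0 were lower and 5 higher, where 10.0% and 9.70% were. Against the other control 1 of 14 was lower and 7 were higher, where 15.5% and 17.5% of all genes were.

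At day 8, 3 of 14 genes of this list were lower and 1 was higher, where 10.0% and 7.89% of all genes were, with a median log2 ratio of -0.61. Spry1 was lower in the day 6 knockdown (9.31 and 3.17 FPKM, -1.55) and at day 8 (8.16 and 2.90 FPKM, -1.49). Spry2 stood at 23.1 and 51.1 FPKM at day 8.

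**Figure D4:**
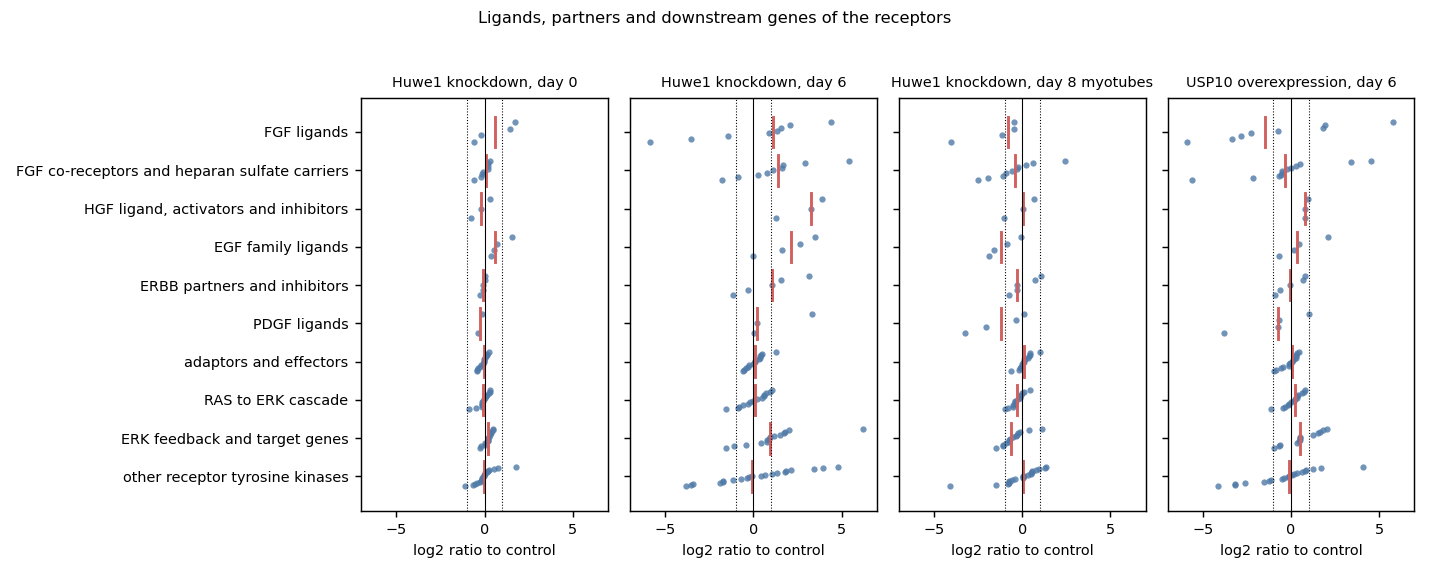
Log2 ratios of treated to control for genes of the 10 lists of ligands, partners and downstream genes in the 4 tables; each blue point is a gene reaching 1 FPKM, red bars are list medians and dotted lines mark 2-fold. Flrt3 at day 6 is not drawn, since its control was listed at 0; the adaptor and cascade lists have medians between -0.31 and 0.21 in every table.

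Of 46 other receptor tyrosine kinase genes, 21 were compared in the day 6 Huwe1 table, and 7 were lower and 8 higher, where 13.4% and 17.6% of all genes were. With the other control 7 were lower and 4 higher, where 9.92% and 13.0% of all genes were. Musk, the receptor of the neuromuscular junction, stood at 94.9 FPKM in the control of this table, 28.5 after knockdown, and 34.1 in the other control. Ddr2, a collagen receptor, stood at 124 FPKM in the knockdown and 138 with USP10, above both controls (34.8 and 42.1). Of 20 compared in the USP10 table, 7 were lower and 3 higher, where 10.0% and 9.70% of all genes were, and with the other control 7 were lower and 8 higher. Of 21 at day 8, 2 were lower and 2 higher, where 10.0% and 7.89% were.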

How the data were processed

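Directional mRNA libraries of C2C12 cells were sequenced by the authors, who mapped reads (the methods name Tophat, the submitters' processing notes Bowtie2) to mm10 and estimated expression with Cuffdiff; versions and annotation are not given in the sources used here. The deposited values used here are FPKM, per the file headers pooled over both knockdown libraries of a day. The tables also hold the authors' log2 fold changes, test statistics, p-values and q-values, which were not used.

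Here log2 ratios were computed with 0.01 FPKM added, for genes reaching 1 FPKM in at least 1 of the 2 columns, and a 2-fold limit set the counts. Each condition had 1 value, so no test was made, and the script was tested on simulated data. Coordinates are mm10, with starts raised by 1 to count from 1. Depth was estimated from the smallest step between FPKM values times transcript length in single-library columns. Fragment numbers use the longest coding GENCODE transcript with a RefSeq match and are approximate. Named genes are the 9 receptors, at most 3 genes lower and 3 higher for each list and comparison and its 3 most abundant genes, the genes named to check the labels, and the 3 genes most like each receptor. The receptors and lists were chosen with earlier results of these data known. Scripts ran in Python 3.11.15 with pandas 2.3.3, on numpy 2.4.6, and plots were drawn by matplotlib 3.10.9. Pseudocounts of 0.1 and 1 FPKM, a minimum of 5 FPKM, 1 FPKM in both columns or none, centring on the median gene, a 1.5-fold limit and the other day 6 control were tried.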

Additional observations from a re-analysis of the deposited data

Results flagged for a closer look

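For 3 receptors the log2 ratio of Huwe1 knockdown to control had opposite signs at day 6 and in day 8 myotubes. The difference, day 8 minus day 6, was 6.43 for Fgfr4 (-5.79 at day 6 and 0.63 at day 8), 1.86 for Fgfr3 (-1.27 and 0.59) and -2.24 for Pdgfrb (2.14 and -0.10). These differences were not tested, since each condition had 1 column. By the sample labels the 2 days used different hairpins, while the study's methods name 1 pair for both; they also had different controls, and the cells were depleted of Huwe1 before differentiation at day 6 but from day 4 of it at day 8, so day, hairpin and time of depletion cannot be told apart. With the day 6 control of the USP10 table, Fgfr4 at day 6 was -5.19, still opposite to day 8, while Fgfr3 was 0.27 and Pdgfrb -0.83, each on the same side as day 8.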

How the results depend on the processing

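No paired analysis was possible because the tables pool both knockdown libraries in 1 column and hold no replicate values; leaving out a replicate could not be run for the same reason. Receptor log2 ratios were recomputed with the other pseudocounts, a minimum of 5 FPKM, 1 FPKM in both columns, and centring. Of these 241 ratios, 13 moved by more than the 0.63 spread between the day 6 controls. All 13 were with a pseudocount of 0.1 or 1 FPKM (Fgfr4 in the day 6 knockdown was -3.67 with 1 FPKM). Among those beyond 2-fold 0 changed sign. A minimum leaves a ratio as it is and a pseudocount cannot change its sign, so no conclusion is drawn from that.

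The day 6 control used mattered most; this alternative was chosen after seeing the data, and the cause of the difference was not tested. With the other control, the day 6 knockdown had 0 receptors higher in place of 2, Fgfr3 was 0.27, Pdgfrb was -0.83, and the list medians were -0.13 for both FGF and EGF family ligands and -0.06 for FGF co-receptors. USP10 then had 2 receptors higher in place of 0. From day 0 to day 6, 1 receptor was lower and 6 were higher in place of 3 and 3, Pdgfra was 0.32, Pdgfrb 1.37 and the HGF list median 0.37.

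With 1 FPKM required in both columns, 1 receptor in place of 3 was lower with USP10, 0 in place of 3 were higher from day 0 to day 6 in control cells, 2 in place of 6 to day 8, and 1 in place of 3 from day 0 to day 6 in knockdown cells; FGF ligand medians were -0.06 in the day 6 knockdown and -0.36 from day 0 to day 6 in knockdown cells, and that of EGF family ligands was -0.04 in the day 6 knockdown. A minimum of 5 FPKM gave 1 receptor higher from day 0 to day 6 in knockdown cells and an FGF ligand median of -1.46 in the day 6 knockdown. With no minimum, 1 receptor was higher in the day 0 knockdown and 2 were lower from day 0 to day 6 in knockdown cells; EGF family ligand medians were -0.04 in the day 6 knockdown, 0.32 from day 0 to day 6 and 0.16 to day 8 in controls, and the HGF list median was 1.16 from day 0 to day 6. A 1.5-fold limit gave 4 receptors higher in the day 8 knockdown and 5 from day 0 to day 6 in knockdown cells. These changes follow by construction from which genes are compared or from the limit.

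Over all genes the counts lower and higher ranged over the settings from 88 to 953 and 91 to 1710 in the day 0 knockdown, 1106 to 3141 and 1284 to 3937 at day 6, 771 to 3640 and 502 to 2408 at day 8, and 658 to 2880 and 740 to 2983 with USP10, against 184 and 207, 1571 and 2061, 1180 and 928, and 1153 and 1114 as reported. From day 0, control cells ranged from 1934 to 3983 and 1561 to 4733 at day 6 (2707 and 2511 as reported) and 1433 to 3080 and 1371 to 5846 at day 8 (1840 and 2334), and knockdown cells from 1587 to 3225 and 1389 to 4332 (1954 and 2211). The depth of the pooled columns is unknown, so values below 1 FPKM there cannot be given a counting error.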
